A study of Homo sapiens with 6 samples.

Results

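The 10 genes described here make long noncoding RNAs of 2 kinds. MALAT1 and NEAT1 are long RNAs known for staying largely in the nucleus, and TUG1 is grouped with them here. GAS5, ZFAS1, SNHG1, SNHG5, SNHG6, SNHG8 and SNHG12 are host genes whose introns carry small nucleolar RNAs (snoRNAs). All 10 were chosen by gene name, with earlier results of these data known. Each had 1 row in each of the 2 deposited tables, out of 17721 gene identifiers listed in either table. The study used U2OS, an established human osteosarcoma cell line, and its labels gave 6 RNA samples. These were 2 co-immunoprecipitates and 1 input from shDNMT1 cells, in which a short hairpin RNA lowers DNMT1, and 2 co-immunoprecipitates and 1 input from control cells (shNC, genotype WT). The protein precipitated was a mutant of the RNA cytosine methyltransferase NSun2, and per the labels both kinds of cell had been transfected with its plasmid, so the controls carried it too. Neither table names a sample or a group, so they are called the second and the first table, which cells or libraries each holds is unknown, and no test could be made between them. Each gene has 1 value per table, in FPKM (fragments per kilobase of transcript, scaled to the fragment total), with no replicate and no SD.

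MALAT1 gathers in nuclear speckles, bodies rich in splicing factors, and its tail is trimmed by RNase P, which frees a small tRNA-like RNA called mascRNA. NEAT1 is the scaffold of paraspeckles, nuclear bodies built on it together with proteins such as SFPQ and NONO. Host genes are spliced, their introns are trimmed to box C/D or H/ACA snoRNAs that guide the chemical modification of ribosomal RNA, and the remaining exons often have no known protein product. Many spliced host RNAs, GAS5 among them, begin with a run of pyrimidines like that of ribosomal protein mRNAs and are degraded by nonsense-mediated decay when ribosomes load on them.

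The second table listed 16824 genes and the first 15167, with 14270 in both, and the depth behind either is unknown. DNMT1 was listed at 9.36 FPKM in the second table and 23.3 FPKM in the first, and NSUN2 at 1147 FPKM in the second and 559 FPKM in the first, where plasmid RNA and RNA of the chromosomal gene cannot be told apart. Of 6 mesenchymal and bone markers, 5 were listed in the second table and 3 in the first, with vimentin (VIM) at 407 FPKM in the second and 262 FPKM in the first. The markers listed in the second table only were at 0.81 and 0.03 FPKM there, so the difference between these counts rests on low values. The collagen COL1A1 was at 0.45 and 3.04 FPKM in the second and first tables, and COL1A2 was in neither. The epithelial keratins KRT8 and KRT18 were listed at 1410 and 1196 FPKM in the second table and 1597 and 1293 FPKM in the first, and CDH1, which marks epithelium, at 0.39 FPKM in the second and 8.42 FPKM in the first. High keratins beside low or unlisted collagens are unusual for a line of bone origin, though no reference values of U2OS were compared. U2OS is named here from the labels alone. The part of any other cell type in the values given here was not tested.

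The starts of these genes are shown first, because they hold features that the choice of genes did not use. RefSeq windows (GRCh38.p14) reaching 250 bases before and 50 after each start were matched by symbol for 8 of the 10 genes, with 2 starts for MALAT1, and not for NEAT1 and SNHG6. The stretch from 40 bases before to 50 bases after each start is printed 5′ to 3′ on the gene's strand, and the start base is position 1, with no position 0. Capitals mark the first run of at least 5 C or T that reaches position -5 or lies after it, and the letters TATAA where they begin between positions -40 and -20.
SNHG12, chr1:28581824-28581913, minus strand: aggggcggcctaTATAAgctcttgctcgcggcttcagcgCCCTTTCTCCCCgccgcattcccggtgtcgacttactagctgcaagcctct
SNHG5, chr6:85678684-85678773, minus strand: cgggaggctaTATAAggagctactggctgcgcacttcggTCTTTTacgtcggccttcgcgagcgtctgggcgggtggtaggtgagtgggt
ZFAS1, chr20:49278602-49278691, plus strand: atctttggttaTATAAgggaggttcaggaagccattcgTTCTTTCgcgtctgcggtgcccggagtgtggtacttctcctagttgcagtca
SNHG8, chr4:118278722-118278811, plus strand: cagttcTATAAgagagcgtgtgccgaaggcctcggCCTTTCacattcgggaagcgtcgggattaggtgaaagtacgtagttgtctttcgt
SNHG1, chr11:62855836-62855925, minus strand: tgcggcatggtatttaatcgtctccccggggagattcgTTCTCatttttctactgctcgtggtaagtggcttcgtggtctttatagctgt
GAS5, chr1:173868996-173869085, minus strand: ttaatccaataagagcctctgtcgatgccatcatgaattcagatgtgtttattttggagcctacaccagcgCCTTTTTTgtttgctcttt
MALAT1, first start, chr11:65497698-65497787, plus strand: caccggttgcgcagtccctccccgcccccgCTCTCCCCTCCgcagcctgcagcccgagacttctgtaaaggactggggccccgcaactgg
MALAT1, other start, chr11:65499005-65499094, plus strand: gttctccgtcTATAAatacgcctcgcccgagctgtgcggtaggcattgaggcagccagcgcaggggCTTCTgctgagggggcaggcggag
TUG1, chr22:30969225-30969314, plus strand: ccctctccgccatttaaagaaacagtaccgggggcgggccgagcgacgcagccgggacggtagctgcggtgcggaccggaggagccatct

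A pyrimidine run overlapped positions -5 to 5 in SNHG12, SNHG5, ZFAS1, SNHG8 and SNHG1 and at the first start of MALAT1. It was longest in SNHG12, at 12 bases from position -1 to 11. In SNHG8 (positions -5 to 1) and at the first start of MALAT1 (-10 to 1) the run ended at the start base. It thus lay mostly before the RefSeq start in these, and the shares below count such runs too. In GAS5 the first such run lay further in, at positions 32 to 39 of the start that RefSeq gives, and TUG1 had none in the window. Of the 9 starts, 6 had such a run (66.7%), against 34.1% of the 35116 starts in the whole RefSeq table and 35.2% of the 8052 starts of genes above the median level used below. It was found at 8 of 14 starts of the other noncoding hosts (57.1%), 17 of 28 starts of protein-coding hosts (60.7%) and 6 of 18 starts of other long noncoding RNAs (33.3%). TATAA, whose count was not planned, was found at 5 of the 9 starts (55.6%), those of SNHG12, SNHG5, ZFAS1, SNHG8 and the other start of MALAT1. The share was 3.91% of all starts and 2.71% of those of genes above the median level. It was 14.3% for the other noncoding hosts, 21.4% for protein-coding hosts and 5.56% for other long noncoding RNAs. On the opposite strand, where the same letters read TTATA along the gene, the shares were 11.1% of the 9 starts (ZFAS1, whose match overlaps its TATAA) and 1.73% of all starts. A match of letters is a description and not evidence of a working site.

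All 10 genes lay above the median level, which was 4.93 FPKM over the genes in both tables, taking the mean of the 2 values. Their order from highest to lowest was the same in both tables: MALAT1, GAS5, SNHG1, SNHG8, SNHG12, ZFAS1, NEAT1, SNHG5, SNHG6 and TUG1. They summed to 1092 FPKM in the second table and 1096 FPKM in the first, of which MALAT1 was 49.0% in the second and 45.9% in the first. Among the 70 genes above the median level that RefSeq classes as long noncoding, MALAT1 ranked 1, GAS5 2, SNHG1 4, SNHG8 6, SNHG12 10, ZFAS1 11, NEAT1 14, SNHG5 22 and SNHG6 23 by mean level. TUG1 is classed there as protein coding, against the name given to the group.

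**Figure D1:**
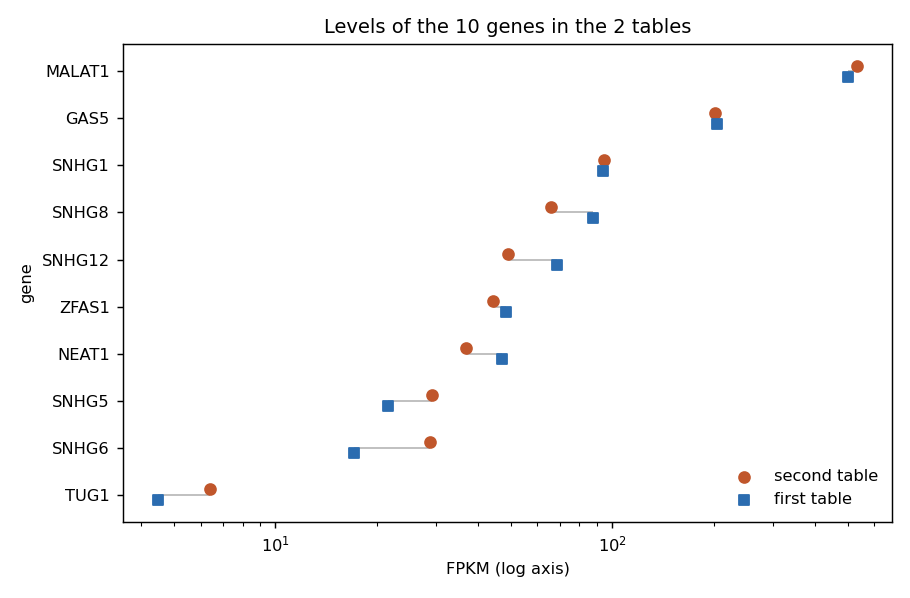
FPKM of each gene (horizontal, log axis) in the second table (circles, drawn above) and the first table (squares), with 1 value per table and no error. The genes run from MALAT1, at 535 FPKM in the second table and 503 FPKM in the first, down to TUG1, at 6.41 FPKM in the second and 4.47 FPKM in the first, and keep the same order in both.

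MALAT1 (ENSG00000251562, chr11:65497762-65506516, hg38) was listed at 535 FPKM in the second table and 503 FPKM in the first. It was higher in the second table by a log2 ratio of 0.09, where every ratio is log2((second + 1)/(first + 1)) in FPKM. It was rank 108 of all genes in the second table and rank 120 in the first. RNase P, which cuts the tail of MALAT1, has the RNA subunit RPPH1, whose identifiers stood at 13880 and 1542 FPKM in the second table and 15508 and 2089 FPKM in the first, both lower in the second.

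NEAT1 (ENSG00000245532, chr11:65422774-65445540), its neighbour on the chromosome, was lower in the second table, at 36.9 FPKM against 47.3 FPKM in the first, a log2 ratio of -0.35. It ranked 1785 in the second table and 1354 in the first. TUG1 (ENSG00000253352, chr22:30970677-30979395), an RNA first described in the developing retina of rodents, was the least abundant of the 10, at 6.41 FPKM in the second table and 4.47 FPKM in the first. Its log2 ratio was 0.44, and its level in the first table exceeded 52.2% of the genes listed there, against 99.2% for MALAT1.

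The 7 host genes held 31 snoRNA genes within their RefSeq spans, and MALAT1, NEAT1 and TUG1 held none. None of these 31 snoRNAs had a row in either table, so what follows is about host transcripts and not about snoRNAs. Identifiers with a snoRNA name numbered 11 in the second table and 16 in the first.

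GAS5 (ENSG00000234741, chr1:173863248-173903549), host of 11 snoRNA genes and named for its accumulation in growth-arrested cells, was listed at 202 FPKM in the second table and 204 FPKM in the first, a log2 ratio of -0.02. SNHG1 (ENSG00000255717, chr11:62851988-62855914), host of 9, was listed at 94.3 and 93.9 FPKM in the second and first tables, a log2 ratio of 0.01. These were the smallest differences among the 10 genes, and their direction depended on scaling. The ratio of SNHG1 became -0.05 when ratios were centred on the median of all genes, and that of GAS5 became 0.02 when each table was scaled to its total without 5 abundant structured RNAs.

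SNHG12 (ENSG00000197989, chr1:28553085-28582983) holds 4 snoRNA genes, of both box classes. It had the lowest ratio of the 10, at 48.9 FPKM in the second table and 68.8 FPKM in the first, a log2 ratio of -0.48. SNHG8 (ENSG00000269893, chr4:118278709-118279823), host of the H/ACA snoRNA SNORA24, came next, at 66.0 FPKM in the second table and 87.5 FPKM in the first, a log2 ratio of -0.40. ZFAS1 (ENSG00000177410, chr20:49219295-49484297), host of 3 box C/D snoRNAs of the SNORD12 family, was lower by less, at 44.2 and 48.5 FPKM in the second and first tables, a log2 ratio of -0.13.

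SNHG6 (ENSG00000245910, chr8:66870749-66926398), host of SNORD87, had the highest ratio of the 10. It was listed at 28.9 FPKM in the second table and 17.2 FPKM in the first, a log2 ratio of 0.72. SNHG5 (ENSG00000203875, chr6:85660950-85678736), host of SNORD50A and SNORD50B, was listed at 29.2 FPKM in the second table and 21.6 FPKM in the first, a log2 ratio of 0.42. Among the hosts, the 3 with ratios above 0 were SNHG6, SNHG5 and SNHG1, and the 4 below 0 were SNHG12, SNHG8, ZFAS1 and GAS5.

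Of the 10 genes, 5 were higher and 5 lower in the second table, where 57.2% of the 7135 genes above the median level were higher. None of the 10 was at least 2-fold apart. Among all genes above the median level 1.7% were higher in the second table by 2-fold or more (121 genes) and 0.869% lower by as much (62 genes), or 88 and 79 genes with ratios centred on the median. So a count of 0 among 10 lies close to this background. All 10 ratios fell within the middle 95% of these genes, which ran from -0.76 to 0.92. SNHG6 stood furthest out, with 6.66% of the genes at or above its ratio, and SNHG12 had 8.79% at or below its own. The median size of the ratio, whatever its sign, was 0.38 over the 10 genes and 0.29 over the 7135. The median ratio of the 10 was -0.01, against 0.08 for the 7135 and 0.05 for the 70 long noncoding genes, of which 2 were at least 2-fold higher and none at least 2-fold lower.

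**Figure D2:**
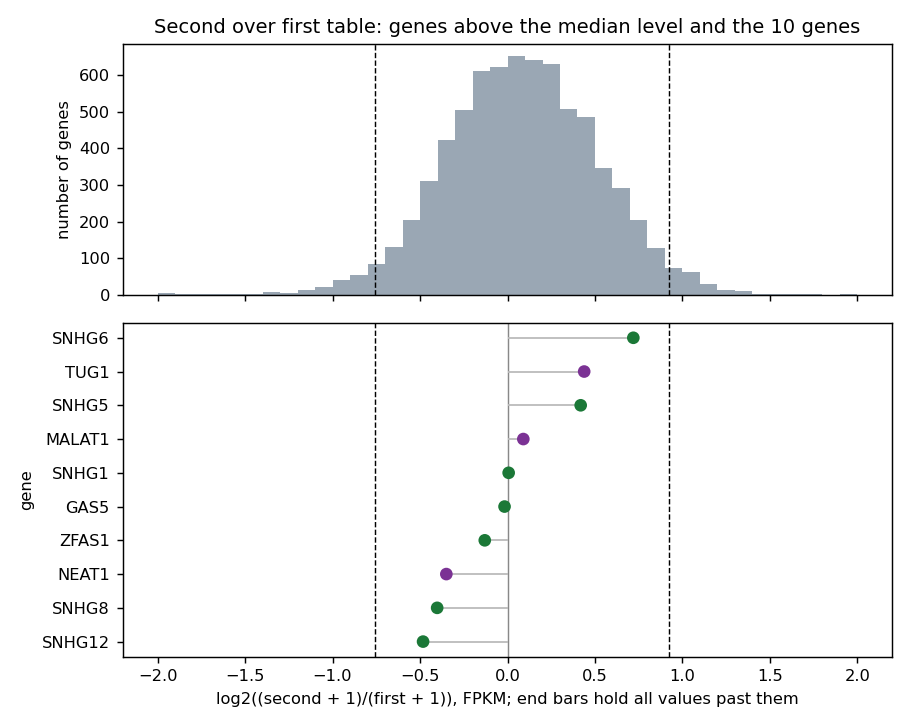
Upper panel, number of genes (vertical) by log2 ratio of second over first table for the 7135 genes above the median level, with dashed lines at -0.76 and 0.92 enclosing the middle 95%. Lower panel, the ratio of each of the 10 genes, MALAT1, NEAT1 and TUG1 in purple and the 7 hosts in green; all lie between the dashed lines, from SNHG12 at -0.48 to SNHG6 at 0.72.

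Of the 10 genes, 3 were given by the tables with a locus shared with listed protein-coding genes, and there the upstream counting could divide fragments between them. A merge with a gene that has no row would not be seen this way. The listed loci of SNHG6 and SNHG5 spanned 55650 and 17787 bases, against 3852 and 1727 bases in RefSeq. No source used here states whether strand entered the counting. SNHG12 shared its locus with TRNAU1AP, a factor for selenocysteine tRNA, which was higher in the second table at 21.2 FPKM against 12.4 FPKM in the first. The level of SNHG12 was thus 2.31 times that of TRNAU1AP in the second table and 5.54 times in the first. This ratio within a table does not depend on the table's total, and its change was -1.26 on the log2 scale with no pseudocount, larger than the ratio of SNHG12 itself.

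ZFAS1 shared its locus with ZNFX1, a helicase with a zinc finger domain after whose antisense strand ZFAS1 is named, and with the helicase DDX27. Another row there, RP4-791K14.2, was in the first table only, at 0.73 FPKM. ZNFX1 was listed at 17.5 and 12.8 FPKM in the second and first tables, and DDX27 at 11.9 FPKM in the second and 9.12 FPKM in the first. ZFAS1 stood at 2.53 times ZNFX1 in the second table and 3.79 times in the first. GAS5 shared its locus with the zinc finger gene ZBTB37, whose RefSeq start lies 665 bases away on the opposite strand. ZBTB37 was low, with 1.21 FPKM in the second table and 0.88 FPKM in the first, and GAS5 was 167 times as high in the second and 233 times in the first. In all 3 loci the noncoding RNA was lower in the second table, GAS5 by a difference whose sign depended on scaling, and the protein-coding genes listed in both tables were higher.

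Opposite-strand starts also lay near SNHG1 and TUG1. The start of SLC3A2, the heavy chain of amino acid transporters, lay 224 bases from that of SNHG1, and SLC3A2 was listed at 259 FPKM in the second table and 269 FPKM in the first. SNHG1 and SLC3A2 thus both differed little between the tables, with ratios of 0.01 and -0.06. MORC2, an ATPase of chromatin silencing, starts 491 bases from TUG1. It was higher in the second table like TUG1, at 5.90 FPKM against 3.33 FPKM in the first, a log2 ratio of 0.67.

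The genes around the 10 had ratios of their own. With at least 10 genes above the median level starting within 1 Mb, 6 of the 10 could be set beside their surroundings. MALAT1 had 59 such genes with a median of -0.15, of which 48 had a lower ratio than MALAT1 and 11 a higher one. NEAT1, which shared 53 of them, had 54 with a median of -0.14, and 16 were below NEAT1 and 38 above. The ratios of MALAT1 and NEAT1 thus lay on opposite sides of the medians of the genes around them, though their starts are 74988 bases apart. Both lay within the spread of those genes. The nearest listed gene before NEAT1 was FRMD8, at 23.9 FPKM in the second table and 23.4 FPKM in the first.

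Around ZFAS1 the 12 genes had a median of 0.40, and 10 of them had a higher ratio than ZFAS1. The nearest listed in both, STAU1, which binds double-stranded RNA, was at 20.7 FPKM in the second table and 11.9 FPKM in the first. Around SNHG12 the 19 genes had a median of 0.14, with 17 higher than SNHG12. TUG1 exceeded 13 of its 14 neighbours, whose median was 0.12. SNHG1 lay in the middle of its own, with 18 of 35 below it and a median of -0.02. Relative to the median of their neighbours, the log2 ratios were -0.62 for SNHG12, -0.53 for ZFAS1, -0.20 for NEAT1, 0.03 for SNHG1, 0.24 for MALAT1 and 0.32 for TUG1. The neighbours of SNHG12 include TRNAU1AP, and those of ZFAS1 include ZNFX1 and DDX27. For SNHG12 and ZFAS1 this comparison is therefore not separate from that at their shared loci. GAS5, SNHG5, SNHG6 and SNHG8 had between 1 and 3 such neighbours and are not set beside them.

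**Figure D3:**
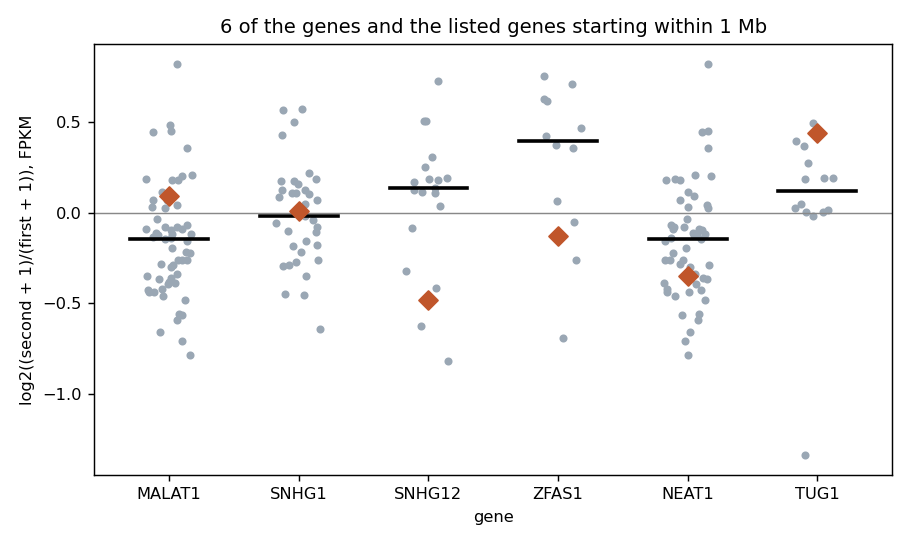
log2 ratio of second over first table (vertical) for 6 of the genes (diamonds) and for the genes above the median level that start within 1 Mb of each (grey points, black bar at their median). SNHG12 and ZFAS1 lie below the bars at 0.14 and 0.40, while MALAT1 and TUG1 lie above the bars at -0.15 and 0.12.

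Of 17 other noncoding snoRNA hosts in both tables, 9 were higher and 8 lower in the second. Their median was 0.01, and it became -0.26 among those sharing no locus with another listed gene. SNHG14, a long host transcript of the imprinted Prader-Willi region, was at least 2-fold higher, at 8.31 FPKM in the second table and 2.54 FPKM in the first. The locus given for SNHG14 was shared with another listed identifier, so fragments could be divided there too. SNHG9 was at least 2-fold lower, at 1.33 FPKM in the second table and 4.42 FPKM in the first. The abundant SNHG3, SNHG16 and DANCR were listed at 106, 96.7 and 58.6 FPKM in the second table and 112, 72.6 and 66.1 FPKM in the first.

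Protein-coding snoRNA hosts, many of them ribosomal protein genes, were divided 20 higher to 12 lower in the second table, around a median of 0.11, and none was at least 2-fold apart. RPS2, RPL7A and RPS3 led them at 2246, 1947 and 1567 FPKM in the second table and 2987, 1987 and 1811 FPKM in the first. By RefSeq spans, a grouping chosen after the values were seen, 271 protein-coding genes above the median level held a snoRNA gene and had a median of 0.17, and 19 long noncoding ones had a median of 0.01. This grouping took no account of strand, and the 19 included the 7 hosts among the 10 genes.

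Of 16 genes for proteins that bind snoRNAs or assemble their particles, 13 were higher in the second table, around a median of 0.25. In this and the other protein lists the values are of RNA and not of protein. The background for this and the other protein lists was 54.8% higher and 2.04% at least 2-fold higher among all 14270 genes in both tables, with a median of 0.05. Among the 7135 genes above the median level, where most genes of these lists lay, it was 57.2% and 1.7%, with a median of 0.08. Protein-coding genes above that level had a median of 0.09. NOP58, a core protein of box C/D particles, was at least 2-fold higher, at 11.6 FPKM in the second table and 5.17 FPKM in the first. NUFIP1, an assembly factor of these particles, was at least 2-fold higher too, at 1.58 FPKM in the second table and 0.19 FPKM in the first. Fibrillarin (FBL), the methyltransferase of box C/D particles, was listed at 178 and 201 FPKM, SNU13, which binds the box C/D fold, at 174 and 143 FPKM, and the helicase RUVBL2 at 88.7 and 95.6 FPKM in the second and first tables.

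Of 17 identifiers of paraspeckle proteins (MATR3 had 2), 13 were higher in the second table, around a median of 0.16, with none at least 2-fold apart, while NEAT1 was lower. NONO was listed at 172 FPKM in the second table and 141 FPKM in the first, and HNRNPK at 165 FPKM in the second and 119 FPKM in the first. SFPQ was listed at 51.4 and 41.8 FPKM in the second and first tables. Of 16 genes for proteins of nuclear speckles or binders of MALAT1, 14 were higher, around a median of 0.28, again with none at least 2-fold apart. HNRNPC was listed at 292 and 185 FPKM, the splicing factor SRSF2 at 186 and 152 FPKM, and the helicase DDX39B at 142 and 117 FPKM in the second and first tables. SFPQ was named for its role, after its value was seen.

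Of 19 genes for factors of nonsense-mediated decay and translation termination, 15 were higher in the second table, around a median of 0.27. The release factor ETF1 was at least 2-fold higher, at 24.0 FPKM in the second table and 11.4 FPKM in the first. EIF4A3 and CASC3 of the exon junction complex were listed at 52.8 and 37.3 FPKM in the second table and 57.8 and 28.9 FPKM in the first, and the helicase UPF1 at 29.8 FPKM in the second and 28.0 FPKM in the first.

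Of 19 other genes listed by name as long noncoding, 7 were higher and 12 lower in the second table. Their median was -0.12, with none at least 2-fold apart. The imprinted H19 was listed at 40.4 FPKM in the second table and 78.1 FPKM in the first, CYTOR at 38.7 FPKM in the second and 19.8 FPKM in the first, and LINC01420 at 54.4 FPKM in the second and 30.8 FPKM in the first. LINC01420 was not matched by symbol to the RefSeq class of long noncoding genes, so its place in this list rests on its name. Of 6 other noncoding RNAs listed because NSUN2 is known or thought to act on them, the 4 vault RNAs had no row, and the 4 identifiers of RPPH1 and SCARNA2 were all lower in the second table, with a median of -0.46. The more abundant SCARNA2 identifier was listed at 302 FPKM in the second and 421 FPKM in the first, and the other, at the same locus, at 16.5 FPKM in the second and 133 FPKM in the first, at least 2-fold lower.

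**Figure D4:**
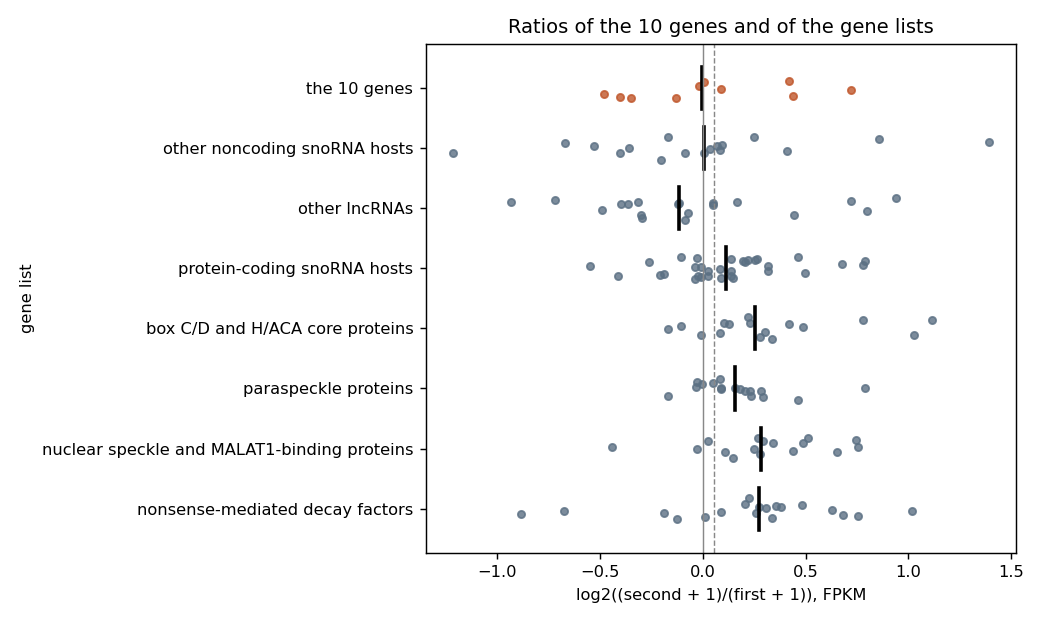
log2 ratio of second over first table (horizontal) for each gene of the 10 and of 7 gene lists (points, spread vertically for display), with a black bar at each median, a solid line at 0 and a dashed line at 0.05, the median over all 14270 genes. The 10 genes have their bar at -0.01 and the other noncoding hosts at 0.01 (-0.26 among those sharing no locus). The 4 lists of genes for proteins that work with these RNAs have bars from 0.16 to 0.28.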

How the data were processed

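Each of the 2 tables gives a gene identifier, name, locus and FPKM, per the file headers. The FPKM values were deposited by the authors, normalised for transcript length and fragment total. No source used here names the tool behind them. Tools named by the submitters' processing notes, with no role stated, are MACS 1.4.2, BWA 0.7.13 and cutadapt 1.12, and the build is hg38. FPKM is a share, so abundant RNAs move the values of others. Locus starts count from 0 and were printed plus 1.

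Samples could not be assigned to either table, so no groups were compared and no test was made. Ratios used a pseudocount of 1 FPKM, which understates differences of low genes. Genes named besides the 10 were those at least 2-fold apart in a list, the 3 of highest mean level, and genes at or next to the locus. The 10 genes and all lists were chosen with earlier results of these data known. RefSeq class was matched by symbol for 93.4% of genes above the median level. Ratios were checked on simulated data. Calculations used Python 3.11.15, pandas 2.3.3 and numpy 2.4.6, and figures matplotlib 3.10.9. A few genes that this rule or the marker lists would name are not reported here.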

Additional observations from a re-analysis of the deposited data

How the results depend on the processing

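No paired analysis was possible because neither table carries a replicate number, and leaving out replicates was not run for the same reason. The ratios of the 10 genes were recomputed with a pseudocount of 0.1 FPKM, centred on the median of all genes, scaled without 5 abundant RNAs (32.0% of all FPKM in the second table and 34.7% in the first), with identifiers of a name summed, and, chosen after seeing the data, relative to genes within 1 Mb. None of the 10 became at least 2-fold apart with the smaller pseudocount, the centring or the scaling. Of 46 recomputed ratios 5 moved by more than 0.1, all of them relative to neighbours, and 2 changed sign, those of GAS5 and SNHG1. Among noncoding hosts sharing no locus the median became -0.26, where fewer genes entered by construction. Without the filter on level, 291 genes were at least 2-fold higher and 240 lower, against 121 and 62 with it, and the number lower became 97 with a pseudocount of 0.1. With 1 value per table and unknown depth, differences of this size cannot be set against replicate error.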
